A study of Brassica napus with 12 samples.

Results

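Root tips of Duplo, a spring variety of oilseed rape (*Brassica napus*), were compared between seedlings kept at a constant 29 °C, the warm treatment, and seedlings kept at a constant 21 °C. In both groups the seeds first germinated for 3 days on agar plates, and the treatment then ran for 7 days in pouches with a paper wick and nutrient solution, in long days. There were 3 biological replicates per temperature, each a pool of several seedlings, so that 6 of the 12 libraries of the series were used here. The other 6 came from the variety Drakkar under the same conditions and serve only for the last comparison. The labels give the tips as 1 cm long, whereas the study's methods give a shorter length. All 101038 genes of the count table were taken, and the 51673 that passed a filter on low counts were tested. The genes described below were chosen in part by their values.

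Plants sense warmth well below the range of heat stress, and roots respond with altered elongation, in which auxin, brassinosteroids and gibberellins are known to act. At higher temperatures, heat-shock factors switch on chaperones, among them the small heat-shock proteins, which hold unfolding proteins until larger chaperones refold them. A root tip is a sink: it lives on sucrose that the phloem brings and on oxygen that reaches dense, dividing tissue slowly. The roles given with gene names below are those of the Arabidopsis genes after which the rapeseed genes are named in the study's tables. Since the rapeseed genome combines those of *B. rapa* (A) and *B. oleracea* (C), a gene often has a close copy in the other subgenome, and each value below is uncertain as far as reads were split between such copies.

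The Duplo libraries held 31701607, 26554987 and 28155628 reads on genes at 29 °C and 33738867, 30263086 and 29950049 at 21 °C. Their levels are given as CPM, a gene's reads per 1000000 of its library after TMM scaling, and p-values come from edgeR's quasi-likelihood test. 29 °C replicate 3 stood apart from the rest. In a principal component analysis, it lay at 127.8 on PC1, which held 48.8% of the variance, whereas the other 5 libraries lay between -39.0 and -13.0. PC2, with 26.1% of the variance, separated 29 °C replicates 1 and 2 (67.2 and 43.2) from the 21 °C libraries (-51.0, -14.6 and -38.7), with 29 °C replicate 3 at -6.18. Among genes with at least 10 CPM, 2101 of 21392 were more than 2-fold higher in 29 °C replicate 3 than in the mean of its partners and 175 were more than 2-fold lower. In 21 °C replicate 2 the same counts were 271 and 100 of 19500 genes, heat-shock genes among them. Genes with at least 2 CPM in every Drakkar library and at most 3 counts in each of the other Duplo libraries were looked at as marks of that variety. In 29 °C replicate 3, 1 of 174 such genes exceeded 3 counts, and in the other libraries 2 to 4 did, except in 21 °C replicate 1, where 21 of 194 did, with 269 reads in all against 44 to 78 in the rest. Values are therefore given for all 6 libraries and, where they move, without 29 °C replicate 3 or 21 °C replicate 2. List values without 21 °C replicate 1 are not given. Leaving that library out lowered the genes at an unadjusted p under 0.05 from 10419 to 6179 in edgeR.

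**Figure D1:**
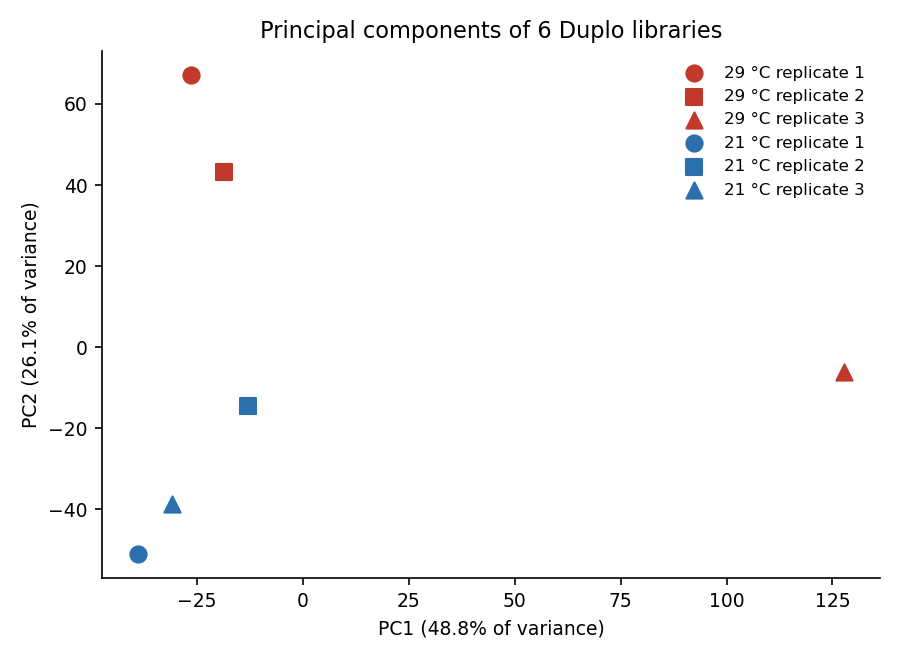
Principal components of log2(CPM + 0.5) over the 51673 genes tested, with a point per Duplo library (red, 29 °C; blue, 21 °C; the shape gives the replicate). 29 °C replicate 3 lies alone at 127.8 on PC1, whereas replicates 1 and 2 separate from the 21 °C libraries on PC2.

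*BnPAB4* (BnaA09g42030D), a gene for a protein that coats the poly(A) tails of mRNAs, was the only differentially expressed gene (DEG, adjusted p under 0.05 and absolute log2FC above 1) between the temperatures over the 6 libraries. It had 20.9, 22.3 and 22.5 CPM at 29 °C, against 4.32, 5.004 and 5.02 CPM at 21 °C. In pools of whole tips, more cells of a type and more RNA per cell cannot be told apart, here and below. The 29 °C libraries lay together at 4.58 times the 21 °C level, and the spread within each temperature was small (log2FC 2.19, SE 0.11, adjusted p = 0.0243). Leaving out 29 °C replicate 3 gave a log2FC of 2.18 (adjusted p = 0.00846). In the 51673 genes tested this call is 0.00194% of genes, and it was lost (adjusted p = 0.0783 to 0.344) when any library other than 29 °C replicate 3 was left out.

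At an unadjusted p under 0.05, 5166 genes (10%) were higher and 5253 genes (10.2%) were lower at 29 °C, so that 49.6% of these genes were higher. Scaled by library totals alone, without TMM, the same share was 59.7%. The temperatures did not overlap, with all 29 °C libraries above all 21 °C libraries, in 13.9% of genes, and all of them below in 14.5%. DESeq2 on the same genes gave 929 DEGs, 573 higher (1.11%) and 356 lower (0.689%), and limma voom with a weight per library, which set 29 °C replicate 3 at 0.225 and the others between 1.122 and 1.70, gave 793 DEGs, 506 higher (0.979%) and 287 lower (0.555%). A single edgeR fit of the 12 libraries gave 453 higher (0.820%) and 328 lower (0.594%) in Duplo. edgeR without 29 °C replicate 3 gave 465 DEGs, 241 higher (0.460%) and 224 lower (0.427%) at 29 °C, of which 278 were among the DESeq2 calls, which is 59.8% of the first list and 29.9% of the second. Below, "higher" with a count of list members means an unadjusted p under 0.05 over the 6 libraries.

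Of the genes over 2-fold higher at 29 °C with no overlap and at least 1 CPM, only those with a gene name were ranked for description, 204 of 860, and unnamed genes with smaller p-values are not described. Those with the smallest p-values had several functions, abscisic acid receptors among them. *BnPYL6* (BnaA04g29300D), a receptor that on binding abscisic acid inhibits protein phosphatases, had 18.7, 14.2 and 21.2 CPM at 29 °C, against 3.69, 3.78 and 4.75 CPM at 21 °C, 4.43-fold apart in the means (log2FC 2.15, SE 0.19, adjusted p = 0.0698). *BnPYL4* (BnaC03g21240D), of the same family, had 8.03, 7.66 and 7.44 CPM at 29 °C, against 2.57, 3.27 and 3.12 CPM at 21 °C (log2FC 1.37, SE 0.15, adjusted p = 0.0698). In both the temperatures were well apart, and without 29 °C replicate 3 both were DEGs, with log2FC 2.02 and 1.40 (adjusted p = 0.0230 and 0.0349).

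Enzymes of amino acid and glucosinolate metabolism showed a similar separation. *BnGAD2* (BnaC04g12030D), glutamate decarboxylase, which makes γ-aminobutyric acid, had 6.23, 6.398 and 5.46 CPM at 29 °C, against 1.90, 1.80 and 1.43 CPM at 21 °C (log2FC 1.81, SE 0.17, adjusted p = 0.0698). *BnFMO GS-OX2* (BnaC09g13360D), an S-oxygenase that modifies the side chains of aliphatic glucosinolates, averaged 11.9 ± 1.67 CPM at 29 °C, against 3.41 ± 0.598 CPM at 21 °C (SD, n = 3 each). For both, the lowest 29 °C library lay more than 2-fold above the highest 21 °C library, and both were DEGs without 29 °C replicate 3 (log2FC 1.88 and 1.91, both adjusted p = 0.0230).

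The largest differences of this group were in genes nearly silent at 21 °C. *BnDRG1* (BnaA07g30360D), which encodes a GTP-binding protein of the DRG family found in growing tissue, had 7.50, 8.36 and 13.1 CPM at 29 °C, against 0.151, 0.477 and 0.0332 CPM at 21 °C. Its C-subgenome namesake *BnDRG1* (BnaC06g33810D) had 8.66, 9.47 and 18.3 CPM at 29 °C, against 0.0302, 0.511 and 0.166 CPM at 21 °C. Reads may be shared between these copies, whose log2FC values were 5.45 and 5.70 over 6 libraries and 5.17 and 5.29 without 29 °C replicate 3, where both were DEGs. BnaC03g22600D, annotated as a pectin lyase-like protein, had 1.65, 0.962 and 1.42 CPM at 29 °C, which is 119 reads in all, against 0, 0 and 1 read at 21 °C. Scaled for depth the ratio was 126 (exact 95% counting interval 22.2 to 5020), an interval that covers counting error only.

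Further genes of this kind act in the nucleus or in signalling. *BnASY1* (BnaC06g28450D), a protein of the meiotic chromosome axis, averaged 2.61 ± 0.416 CPM at 29 °C, against 0.519 ± 0.0569 CPM at 21 °C. *BnNUC-L2* (BnaC05g34550D), a nucleolin of the nucleolus, averaged 9.28 ± 1.23 CPM at 29 °C, against 3.13 ± 0.604 CPM at 21 °C, and *BnCSN6B* (BnaA03g48020D), a subunit of the COP9 signalosome, averaged 3.38 ± 0.390 CPM at 29 °C, against 0.515 ± 0.261 CPM at 21 °C (SD, n = 3 each). All 3 were DEGs without 29 °C replicate 3, with adjusted p-values of 0.0349, 0.0367 and 0.0367. *BnBIA* (BnaCnng69590D) had 112, 123 and 136 CPM at 29 °C, against 60.5, 66.1 and 54.1 CPM at 21 °C (log2FC 1.04, SE 0.12, adjusted p = 0.0832).

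Few genes lower at 29 °C could be named, since the study's tables of gene names used here hold few of them. Of 466 genes over 2-fold lower with no overlap and at least 1 CPM, 3 had a name. *BnHB-3* (BnaC03g18850D), a homeodomain transcription factor gene, had 0.405, 0.222 and 0.0709 CPM at 29 °C, against 1.51, 0.817 and 0.698 CPM at 21 °C (log2FC -2.07, SE 0.56, adjusted p = 0.136). *BnRNS1* (BnaCnng39460D), a secreted ribonuclease induced by phosphate starvation, had 0.249, 0.925 and 2.41 CPM at 29 °C, against 11.4, 4.77 and 2.96 CPM at 21 °C, and its nearest libraries of the opposite temperatures were close together (adjusted p = 0.172). The third was BnaC03g44680D, annotated as the vacuolar iron transporter-like gene VTL5, with 0.249, 2.14 and 0.425 CPM at 29 °C, against 3.02, 7.59 and 3.22 CPM at 21 °C (adjusted p = 0.177). None of these passed the threshold with or without 29 °C replicate 3.

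The lowered genes with the smallest p-values carry no name in the tables and were picked after their values were seen. BnaCnng56720D had 4.70, 3.96 and 4.68 CPM at 29 °C, against 16.6, 15.4 and 15.1 CPM at 21 °C (log2FC -1.82, SE 0.12, adjusted p = 0.0685), and BnaC07g15280D had 16.1, 16.1 and 19.2 CPM at 29 °C, against 43.7, 45.6 and 45.2 CPM at 21 °C (log2FC -1.39, SE 0.11, adjusted p = 0.0698). In both genes the 3 libraries of each temperature were within a narrow range, and both were DEGs without 29 °C replicate 3 (log2FC -1.86 and -1.48, adjusted p = 0.0230 and 0.00997).

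**Figure D2:**
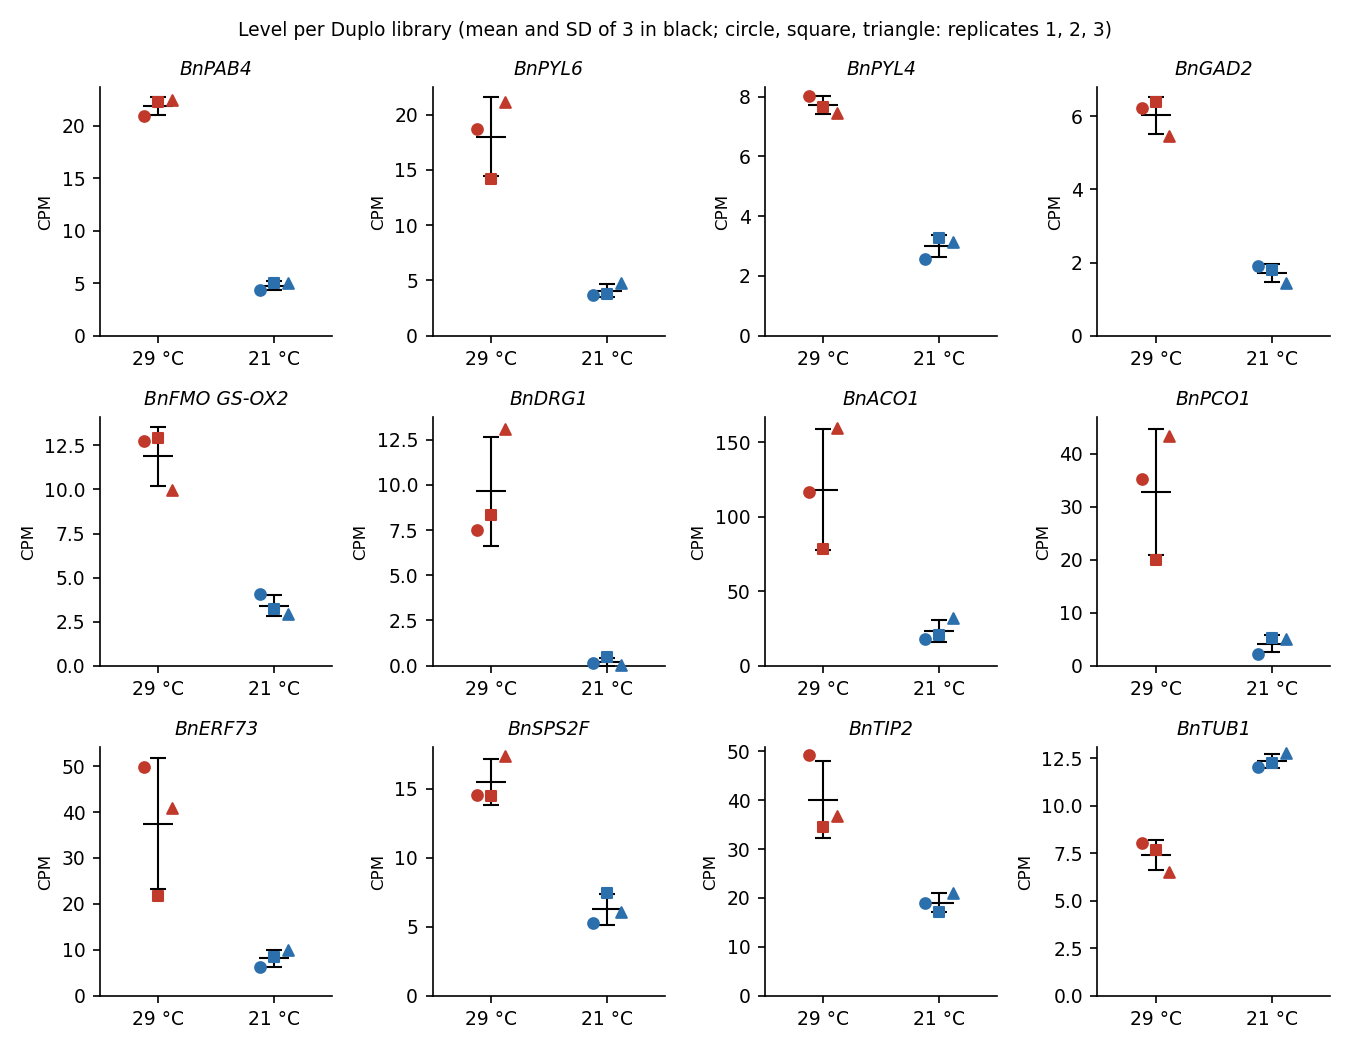
CPM of 12 genes in each Duplo library, 29 °C in red on the left and 21 °C in blue on the right of each panel, with the mean and SD of 3 libraries in black and each vertical axis starting at 0. In each panel the temperatures do not overlap; *BnTUB1*, with 7.41 ± 0.794 CPM at 29 °C and 12.3 ± 0.377 CPM at 21 °C, is the only gene shown that was lower at 29 °C.

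Pathways were followed through 24 lists of Arabidopsis genes. Their members here are the rapeseed genes that the study's tables assign to those loci, 466 genes in all with those of the marker lists. Of these, 337 stand in the study's list of Drakkar DEGs. The study's cluster of genes mainly induced in both varieties holds 185 of them. Its cluster of genes induced in Drakkar, but less so or repressed in Duplo, holds 210. The study chose these genes on libraries of this series, with those of Duplo used for the clusters. The direction in which a list leans was therefore partly set by that choice and is not independent evidence. This holds for each larger share of higher members below. Counts are set against all genes tested, of which 10% were higher, 10.2% lower and whose median log2FC was 0.04. Without 29 °C replicate 3 the shares of all genes were 11.1% higher and 12.3% lower, without 21 °C replicate 2 they were 8.02% and 8.34%, and without both, a fit chosen after seeing the data, 11.4% and 12.6%. That last fit called 0.562% of genes as DEGs higher and 0.614% as DEGs lower at 29 °C. Apart from *BnPAB4*, no list member passed edgeR's adjusted threshold over the 6 libraries.

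The abscisic acid list had 7 of 11 tested members higher and 0 lower, with a median log2FC of 1.07 (0.95 without 29 °C replicate 3). Besides the receptors above, *BnPYL5* (BnaA10g24990D) had 19.4, 17.2 and 20.9 CPM at 29 °C, against 10.4, 10.2 and 7.71 CPM at 21 °C (log2FC 1.02, SE 0.15, adjusted p = 0.0832), and *BnPYL6* (BnaA03g19030D), the A03 copy of the receptor, had 1.28, 1.18 and 3.54 CPM at 29 °C, against 0.0906, 0.340 and 0.199 CPM at 21 °C. In each copy of *BnPYL6* the lowest 29 °C library lay above the highest 21 °C library.

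Ethylene and low-oxygen genes were higher in larger shares than all genes. The ethylene list had 10 of 17 members higher and a median log2FC of 1.46, and the low-oxygen list, which shares 3 genes with it, including both copies of *BnERF73* named below, had 7 of 10 higher and a median of 1.99. *BnACO1* (BnaCnng33000D), the oxidase that makes ethylene in its last step, had 116, 78.4 and 159 CPM at 29 °C, against 18.16, 20.5 and 31.8 CPM at 21 °C. *BnPCO1* (BnaC05g20060D), a cysteine oxidase that marks group VII ethylene response factors for degradation when oxygen is present, had 35.2, 19.9 and 43.3 CPM at 29 °C, against 2.296, 5.14 and 4.99 CPM at 21 °C. These are 5.03-fold and 7.92-fold differences of the means (log2FC 2.33 and 2.99, both adjusted p = 0.0832), and both genes were DEGs without 29 °C replicate 3.

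The response factor *BnERF73* (BnaA07g23090D), a hypoxia-responsive transcription factor, had 49.8, 21.7 and 40.8 CPM at 29 °C, against 6.22, 8.44 and 9.87 CPM at 21 °C, and its copy *BnERF73* (BnaC06g24360D) had 33.6, 18.3 and 30.1 CPM at 29 °C, against 5.23, 5.55 and 8.58 CPM at 21 °C. In both copies 29 °C replicate 2 was the lowest warm library. *BnEBP* (BnaA03g34290D), another factor of that family, averaged 7.65 ± 2.08 CPM at 29 °C, against 2.31 ± 0.443 CPM at 21 °C, and *BnPDC2* (BnaA10g09270D), the pyruvate decarboxylase that opens ethanol fermentation, averaged 60.5 ± 21.2 CPM at 29 °C, against 25.1 ± 11.1 CPM at 21 °C (SD, n = 3 each). The medians without 29 °C replicate 3 were 0.66 for ethylene, with 7 of 17 members higher and 3 lower, and 1.34 for low oxygen, with 5 of 10 higher and 0 lower.

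Lists of growth hormones also had larger shares of higher members than all genes. In the gibberellin and brassinosteroid list 4 of 5 members were higher, with a median of 1.37 (3 higher and 0.90 without 29 °C replicate 3). Among them was *BnSTE1* (BnaC03g33040D), a sterol desaturase, with 25.3, 12.4 and 23.1 CPM at 29 °C, against 6.13, 6.94 and 7.74 CPM at 21 °C. Another was *BnBKI1* (BnaA02g23290D), with 1.40, 1.18 and 1.52 CPM at 29 °C, against 0.604, 0.783 and 1.06 CPM at 21 °C. A count of higher members does not give the direction in which a hormone acts. In the auxin list 8 of 16 were higher and 0 lower, with a median of 0.86 (6 higher and a median of 0.60 without 29 °C replicate 3), and *BnABP1* (BnaA03g25890D), auxin binding protein, averaged 25.4 ± 2.43 CPM at 29 °C, against 13.2 ± 2.82 CPM at 21 °C (SD, n = 3 each). The cytokinin list had 2 of 11 higher, both copies of the glucosyltransferase *BnUGT76C2*, and its median turned from 0.64 over 6 libraries to -0.46 without 29 °C replicate 3. Of its 13 genes, 7 also stand in another list.

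Sugar and nitrogen supply genes were higher in part. The sucrose and sugar transport list had 9 of 18 members higher, 0 lower and a median of 1.15 (8 higher, 1 lower and 0.60 without 29 °C replicate 3). *BnSPS2F* (BnaC07g29460D), a sucrose phosphate synthase, had 14.5, 14.4 and 17.36 CPM at 29 °C, against 5.23, 7.42 and 6.08 CPM at 21 °C. The sucrose carrier gene *BnSUC7* (BnaC06g32880D) had 17.41, 23.52 and 30.6 CPM at 29 °C, against 2.60, 7.18 and 2.83 CPM at 21 °C, and the sugar exporter gene *BnSWEET11* (BnaA06g16330D) had 2.896, 1.81 and 1.52 CPM at 29 °C, against 0.151, 0.715 and 0.399 CPM at 21 °C. Each of these kept the temperatures apart, though the 21 °C libraries of *BnSUC7* ranged from 2.60 to 7.18 CPM.

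In the nitrate list 11 of 29 members were higher and 0 lower (median 0.79), and 14 of 30 were higher and 5 lower without 29 °C replicate 3. *BnLBD39* (BnaA03g54090D), a repressor of nitrogen-responsive genes, had 10.8, 7.47 and 10.52 CPM at 29 °C, against 4.53, 4.53 and 4.25 CPM at 21 °C. *BnNPF3.1* (BnaCnng27190D), a transporter of nitrate and gibberellin, had 1.37, 1.22 and 2.34 CPM at 29 °C, against 0.302, 0.136 and 0.332 CPM at 21 °C. *BnNRT2.1* (BnaAnng40490D), a high-affinity nitrate transporter, averaged 3.98 ± 1.75 CPM at 29 °C, against 1.57 ± 0.171 CPM at 21 °C (SD, n = 3 each) and was a DEG without 29 °C replicate 3 (log2FC 1.58, adjusted p = 0.0483). Another copy of *BnNRT2.1* (BnaA06g04570D) had 14.2, 3.70 and 1.52 CPM at 29 °C, against 1.18, 4.12 and 3.16 CPM at 21 °C. In that copy the temperatures overlapped (adjusted p = 0.434). Amino acid exporters of the UMAMIT family had 1 of 14 higher and a median of 0.03, and the sulfur and phosphate list had 0 of 13 higher and 0 lower. In lists this small, both counts of higher members are near the 10% of all genes. Without 29 °C replicate 3, 6 of 14 UMAMIT genes and 5 of 13 sulfur and phosphate genes were lower, against 12.3% of all genes.

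Cell wall and water channel lists had larger shares of higher members than all genes. The wall-loosening list had 6 of 15 members higher and a median log2FC of 1.06, which was 0.17 without 29 °C replicate 3, with 5 members higher and 2 lower. *BnXYL4* (BnaC09g06400D), a xylosidase of the wall, averaged 17.0 ± 2.48 CPM at 29 °C, against 8.15 ± 1.89 CPM at 21 °C, and *BnEXPA8* (BnaA05g01790D), an expansin, which loosens walls during growth, had 5.79, 2.11 and 2.66 CPM at 29 °C, against 0.937, 0.579 and 0.565 CPM at 21 °C. The expansin was spread at 29 °C, with replicate 1 more than 2-fold above its partners. In the pectin and wall assembly list 7 of 26 were higher (6 higher and 1 lower without that library), including *BnFLA20* (BnaA04g10700D), a fasciclin-like arabinogalactan protein, with 1.84, 1.70 and 2.02 CPM at 29 °C, against 0.514, 0.715 and 0.598 CPM at 21 °C. Of 6 aquaporins tested 3 were higher: *BnPIP1C* (BnaA03g27130D) of the plasma membrane had 5.36, 4.81 and 4.71 CPM at 29 °C, against 2.45, 2.72 and 2.26 CPM at 21 °C, *BnTIP2* (BnaC07g23630D) of the vacuole had 49.2, 34.5 and 36.8 CPM at 29 °C, against 19.0, 17.1 and 21.0 CPM at 21 °C, and the other was a further copy of *BnPIP1C*. The count was 5 of 6 without 29 °C replicate 3.

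The RNA binding and splicing list had 6 of 16 members higher, with *BnPAB4* first, and 1 lower (5 higher without 29 °C replicate 3 and 13 without 21 °C replicate 2). *BnSCL33* (BnaA06g00410D), a splicing factor, had 38.8, 36.2 and 49.8 CPM at 29 °C, against 16.4, 22.98 and 19.9 CPM at 21 °C. In the cell cycle and cytoskeleton list, the only one with more members lower than higher over the 6 libraries, 4 of 12 were lower and 2 higher, although its median log2FC was 0.46 (-0.27 without 29 °C replicate 3). In that library 5 of the 12 members were over 2-fold above the mean of its partners and 0 over 2-fold below. *BnTUB1* (BnaC03g63960D), a tubulin, had 8.03, 7.69 and 6.52 CPM at 29 °C, against 12.03, 12.3 and 12.8 CPM at 21 °C (log2FC -0.73, SE 0.12, adjusted p = 0.0849), and *BnHTB2* (BnaC03g55640D), a histone H2B, had 15.4, 16.5 and 11.5 CPM at 29 °C, against 21.6, 23.52 and 21.97 CPM at 21 °C. The tubulin and the histone were lowest in 29 °C replicate 3, and the summed list lay at 549, 498 and 317 CPM at 29 °C, against 582, 573 and 571 CPM at 21 °C. The clock and light list had 5 of 12 higher and 0 lower (3 without 29 °C replicate 3), among them both copies of *BnELF4-L1*, named after the clock gene *ELF4*. The copy BnaA03g21910D had 0.903, 0.888 and 1.49 CPM at 29 °C, against 0.393, 0.477 and 0.332 CPM at 21 °C, and the copy BnaC03g26210D had a log2FC of 1.48. In the glucosinolate list 3 of 16 were higher and 0 lower, and without 29 °C replicate 3 the counts were 1 and 3.

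**Figure D3:**
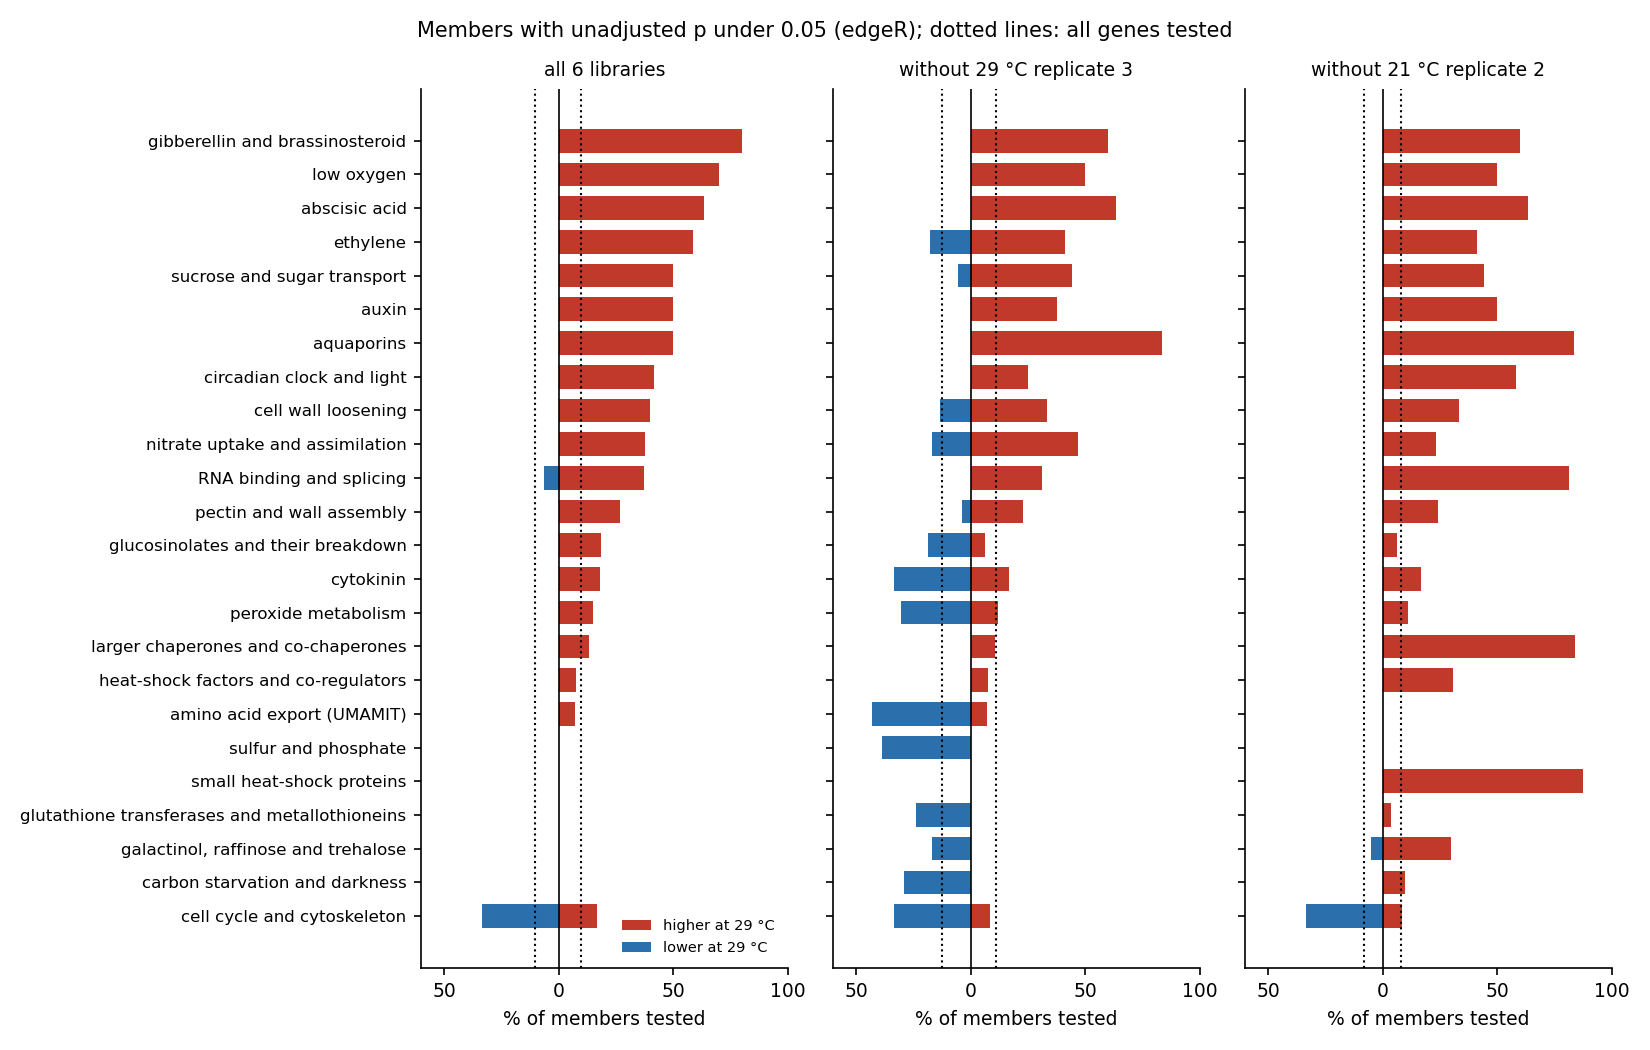
Share of the tested members of 24 gene lists with an unadjusted p under 0.05, higher at 29 °C (red, to the right) or lower (blue, to the left), over all 6 Duplo libraries, without 29 °C replicate 3 and without 21 °C replicate 2; dotted lines give the share of all genes tested in the same fit. Low oxygen stands at 7 of 10 members over all libraries, and small heat-shock proteins at 0 of 16, which becomes 14 of 16 without 21 °C replicate 2.

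Heat-shock genes gave no clear difference over the 6 libraries, and 21 °C replicate 2 stood far from its partners. None of 16 small heat-shock protein genes tested had an unadjusted p under 0.05, and their median log2FC was -0.74. Summed over the list of 21 genes, the level was 126, 185 and 211 CPM at 29 °C, against 36.7, 798 and 31.7 CPM at 21 °C. 21 °C replicates 1 and 3 lay below the 3 warm libraries, and 21 °C replicate 2 lay above all of them.

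Single genes of these lists showed the same order of libraries. *BnHSP17.6II* (BnaC02g04180D), a cytosolic small heat-shock protein, had 0.187, 0.481 and 1.67 CPM at 29 °C, against 0.0302, 26.9 and 0 CPM at 21 °C. *BnHSP23.6-MITO* (BnaA01g14560D), a mitochondrial one, had 18.7, 25.6 and 27.7 CPM at 29 °C, against 0.635, 44.0 and 0.399 CPM at 21 °C. The chaperone gene *BnHSP70B* (BnaA01g30490D) had 34.7, 69.9 and 60.4 CPM at 29 °C, against 5.35, 194 and 7.11 CPM at 21 °C, with 21 °C replicate 2 at 29.0 times its partners (0.5 CPM added). In that library 15 of 16 small heat-shock genes and 29 of 37 larger chaperones and co-chaperones were over 2-fold above the mean of the other 21 °C libraries, against 1.03% of all genes tested.

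Without 21 °C replicate 2 the list read differently. Of 16 small heat-shock genes 14 were then higher at 29 °C at an unadjusted p under 0.05 and the median log2FC was 2.18. Of 37 larger chaperones 31 were higher, against 5 over all libraries, and the median was 1.76 against 0.31. For *BnHSP23.6-MITO* the log2FC was 0.68 over 6 libraries and 5.52 (adjusted p = 0.0691) without that library, and for *BnHSP70B* -0.33 and 3.14 (adjusted p = 0.128). edgeR called no DEG in that fit, with 4244 genes higher and 4415 lower at an unadjusted p under 0.05, so none of these passed the adjusted threshold there. DESeq2 was not run without that library. With 29 °C replicate 3 left out as well, in the fit chosen after seeing the data, 5 of 14 small heat-shock genes and 14 of 37 larger chaperones were DEGs higher at 29 °C and 0 were lower. *BnHSP23.6-MITO* (log2FC 5.40, adjusted p = 0.00933) and *BnHSP70B* (log2FC 3.07, adjusted p = 0.0327) were among them. Heat-shock factors and co-regulators had 1 of 13 higher with and 4 of 13 without 21 °C replicate 2. Why that library stood apart was not tested.

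Many lists had members high in 29 °C replicate 3, and those described here are not the only ones. Over 2-fold above its partners were 8 of 11 cytokinin, 8 of 12 clock and light and 9 of 16 glucosinolate genes, with 0 over 2-fold below. Of 6 aquaporins 0 were above and 1 below. The carbon starvation and darkness list, of genes that plants switch on when sugar runs short, had 0 of 31 members with an unadjusted p under 0.05 despite a median log2FC of 1.93. Its summed level was 194, 124 and 1811 CPM at 29 °C, against 124, 308 and 113 CPM at 21 °C, and 29 of 31 members were over 2-fold above the mean of 29 °C replicates 1 and 2 in replicate 3, where 8.19% of all genes tested were. Without that library the median was -0.76, with 9 of 31 lower at 29 °C and 0 higher. The count of 0 higher changed with 21 °C replicate 2 left out too. In that library 17 of 31 members were over 2-fold above the mean of the other 21 °C libraries, and without both libraries 9 of 27 were higher and 8 lower, with a median of -0.19.

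Peroxide metabolism (27 of 33 over 2-fold above in 29 °C replicate 3), glutathione transferases and metallothioneins (15 of 25) and galactinol, raffinose and trehalose metabolism (11 of 18) did likewise. These lists are not all separate sets of genes. Of the 33 carbon starvation genes 14 also stand in another list, and of the 21 galactinol genes 7 do. Over 6 libraries 5, 0 and 0 of their members were higher and 0 were lower. Without 29 °C replicate 3 the counts were 4, 0 and 0 higher and 10, 6 and 3 lower, where 11.1% of all genes were higher and 12.3% lower, so that the 3 of 18 galactinol genes were close to the share of all genes. The galactinol list had 6 of 20 higher and 1 lower without 21 °C replicate 2, and 6 of 18 higher, 2 of them DEGs, and 3 lower without both libraries. The peroxidase gene BnaAnng19770D had 14.3, 13.6 and 14.5 CPM at 29 °C, against 2.24, 3.64 and 5.68 CPM at 21 °C. Its log2FC was 1.88 over 6 libraries and 1.86 (adjusted p = 0.0483) without 29 °C replicate 3, where it was a DEG.

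The genes highest in 29 °C replicate 3 against its partners are a description of that library, since they were chosen by that ratio. *BnGALK2* (BnaC09g43040D), named after a galactokinase, had 0.0934, 0 and 98.2 CPM at 29 °C, against 0, 0.408 and 0.0665 CPM at 21 °C, and did not pass the filter on low counts. *BnASN1* (BnaA06g17510D), an asparagine synthetase known for its rise in darkness, had 0.405, 0.0740 and 64.6 CPM at 29 °C, against 0.151, 6.26 and 0.199 CPM at 21 °C. *BnTHA1* (BnaC05g06260D), a threonine aldolase, had 0.654, 0.333 and 159 CPM at 29 °C, against 4.20, 35.6 and 10.47 CPM at 21 °C. In these 3 genes replicates 1 and 2 were below 1 CPM at 29 °C.

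*BnNPF7.2* (BnaCnng78690D), which removes nitrate from the xylem, had 0.872, 1.59 and 163 CPM at 29 °C, against 3.87, 2.52 and 6.15 CPM at 21 °C. *BnGSTF3* (BnaCnng19060D), a glutathione transferase, had 0.187, 0.407 and 127 CPM at 29 °C, against 1.84, 4.56 and 11.6 CPM at 21 °C, and *BnGLYI4* (BnaC05g11680D), a glyoxalase, had 2.37, 1.85 and 158 CPM at 29 °C, against 6.10, 11.1 and 4.59 CPM at 21 °C. Replicate 3 was thus the highest of the 6 libraries for each. *BnKTI1* (BnaA07g22750D), a trypsin inhibitor, had 0.187, 0.222 and 48.9 CPM at 29 °C, against 0.967, 2.96 and 6.35 CPM at 21 °C. *BnBCAT-2* (BnaA08g26000D), an aminotransferase of branched-chain amino acids, had 0.0623, 0.111 and 36.2 CPM at 29 °C, against 0.242, 4.73 and 0.764 CPM at 21 °C. Of these 8 genes, the 7 that were tested had a positive log2FC over 6 libraries and a negative one without 29 °C replicate 3, from -5.04 to -1.77, and none passed the threshold either way.

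Fewer named genes were low in that library. *BnNPF6.3* (BnaA09g47380D), a dual-affinity nitrate transporter, had 33.3, 11.7 and 4.96 CPM at 29 °C, against 7.86, 10.2 and 14.6 CPM at 21 °C, *BnBETAFRUCT4* (BnaA06g08310D), a vacuolar invertase, had 15.4, 14.9 and 6.27 CPM at 29 °C, against 14.9, 14.4 and 18.25 CPM at 21 °C, and *BnPIP2;4* (BnaC09g53920D), a plasma membrane aquaporin, had 28.7, 23.2 and 11.2 CPM at 29 °C, against 5.98, 16.2 and 11.5 CPM at 21 °C. The ratios of replicate 3 to its partners were 0.237, 0.432 and 0.441 (0.5 CPM added). Why 29 °C replicate 3 stood apart was not tested.

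**Figure D4:**
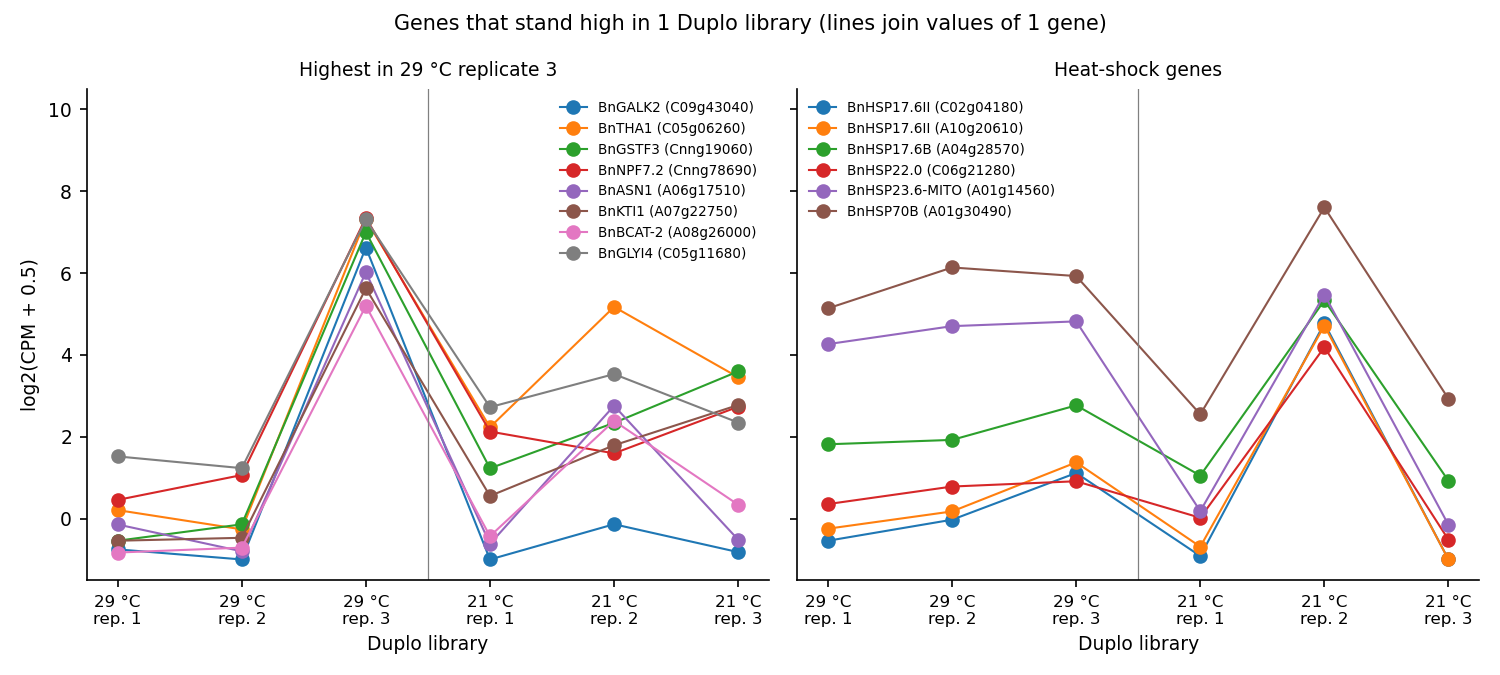
log2(CPM + 0.5) in the 6 Duplo libraries, 29 °C on the left and 21 °C on the right, for the 8 named genes highest in 29 °C replicate 3 against its partners (left panel, chosen by that ratio) and for 6 heat-shock genes (right panel). Heat-shock genes peak in 21 °C replicate 2, where *BnHSP70B* reached 194.4 CPM, against 5.35 and 7.11 CPM in 21 °C replicates 1 and 3.

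**Figure D5:**
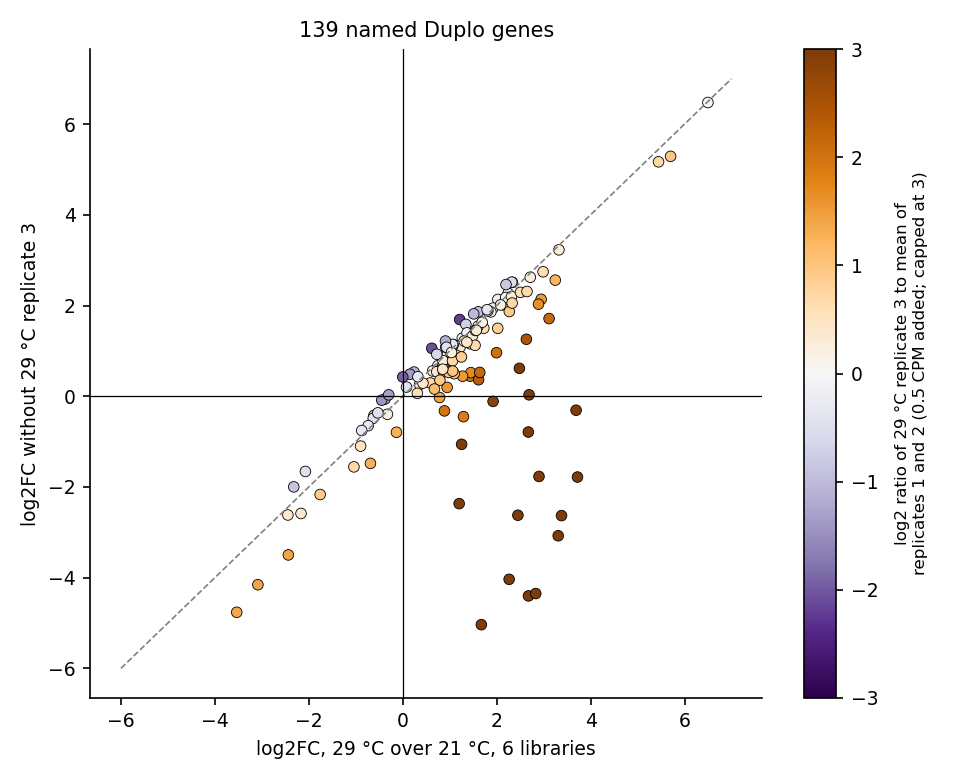
log2FC (29 °C over 21 °C, edgeR) of 139 named genes over all 6 Duplo libraries (horizontal axis) and without 29 °C replicate 3 (vertical axis), coloured by the log2 ratio of that replicate to its partners; the dashed line marks equal values. The sign differs for 18 genes, and the leading genes such as *BnPAB4* (2.19 and 2.18) lie on the line. Some of the genes were chosen for an extreme ratio of that replicate to its partners, and the leading ones for small p-values. Both patterns therefore follow in part from the choice of genes.

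Tissue markers were looked up to see what the tips held. No gene in the tables used here is assigned to *PLT1*, *SCR*, *WOX5*, *SMB* or the other markers of meristem and root cap that were sought, so the label could not be checked against those genes. The root hair genes *BnRHD2* and *BnCOW1* summed to between 0.280 and 1.59 CPM at 29 °C and between 0.374 and 0.631 CPM at 21 °C, and neither passed the filter. The phloem list had 2 of 7 members higher, both sugar exporters of the SWEET family, and a summed level of 16.9, 17.3 and 34.0 CPM at 29 °C, against 9.49, 10.9 and 14.4 CPM at 21 °C. Its companion cell gene *BnSUC2* ranged from 1.15 to 11.5 CPM at 29 °C and from 2.21 to 2.49 CPM at 21 °C. Of 3 photosynthesis genes tested 1 was higher, and the summed list reached 3.61, 3.29 and 9.32 CPM at 29 °C, against 2.12, 2.76 and 1.89 CPM at 21 °C, a low level in every library. For both lists 29 °C replicate 3 was the highest library.

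Seed storage albumin genes kept the temperatures apart. *BnSESA1* (BnaC01g19300D) had 9.62, 9.58 and 18.8 CPM at 29 °C, against 3.54, 2.31 and 1.99 CPM at 21 °C, and its tandem neighbour by identifier, *BnSESA1* (BnaC01g19310D), had 2.58, 3.96 and 1.63 CPM at 29 °C, against 0.302, 0.953 and 0.532 CPM at 21 °C. Over 6 libraries the log2FC values were 2.27 and 2.199 (adjusted p = 0.0835 and 0.107), and both were DEGs without 29 °C replicate 3. The oleosin marker *BnOLEO1* stayed between 0 and 0.306 CPM in all 6 libraries. The part of these cell types in the differences above was not tested.

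Whether Duplo responded to 29 °C differently from Drakkar was tested as an interaction in a fit of all 12 libraries. The difference, Duplo response minus Drakkar response, passed an adjusted p under 0.05 in 0 of 55227 genes by edgeR (lowest adjusted p = 0.0878), while 3946 genes (7.15%) had an unadjusted p under 0.05. DESeq2 called 189 genes, and edgeR without Duplo 29 °C replicate 3 called 226. Of 139 named genes, 36 had an unadjusted p under 0.05 and the lowest adjusted p was 0.466. The difference was positive in 13 of the 36 and negative in 23, which gives its sign and not which variety changed more. Named genes were partly chosen for their Duplo values and partly from lists in which most genes are Drakkar DEGs, so neither count is independent of that choice.

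For *BnPAB4* the responses were close, with log2FC 2.18 in Duplo (in the fit of 12 libraries) and 2.01 in Drakkar, and a difference of 0.16 (SE 0.15, adjusted p = 0.900). The peroxidase gene BnaAnng19770D had a log2FC of 1.86 in Duplo and 0.26 in Drakkar, and the difference of 1.59 did not pass (SE 0.34, adjusted p = 0.466), although DESeq2 called it. *BnSTE1* had 1.53 in Duplo and 0.14 in Drakkar (SE 0.32, adjusted p = 0.466 for the difference, also called by DESeq2). The receptor gene *BnPYL4* had 1.35 in Duplo and 0.53 in Drakkar (SE 0.32, adjusted p = 0.627). Over all 12 libraries edgeR called 0 named genes for this difference and DESeq2 called 7. Besides the peroxidase gene and *BnSTE1*, these were *BnHSP17.6B*, 3 copies of *BnHSP17.6II* and the cytokinin response factor gene *BnCRF3*, all with a negative difference. Their differences ran from -12.4 for a copy of *BnHSP17.6II* to -1.25 for *BnCRF3*, and the heat-shock values include 21 °C replicate 2. For the copy at -12.4 (BnaC02g04180D), the edgeR log2FC in Duplo was -3.53 over 6 libraries and 5.27 without that library, against 8.798 in Drakkar. For the copy BnaA10g20610D these values were -3.08, 3.92 and 7.77, and for *BnHSP17.6B* -1.76, 1.497 and 4.901. In the remaining copy (BnaC03g05240D) the Duplo log2FC moved from -2.17 to 6.196. The differences of these genes without 21 °C replicate 2 are not given here. Without Duplo 29 °C replicate 3 edgeR called 7, all with a negative difference: *BnTHA1*, *BnGSTF3*, *BnGLYI4*, a pair of *BnKMD1* copies, *BnSAM1* and *BnPRX71*. The first 3 were chosen for a high ratio of that library to its partners, so that a lower Duplo log2FC without it was built into the choice. The differences of the other 4 lay between -7.26 and -3.79, and edgeR called these genes too only with that library left out. In that library 8 of 11 cytokinin and 27 of 33 peroxide genes tested were over 2-fold above its partners. Because edgeR called all 4 only without that library, their calls are not independent of it either.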

How the data were processed

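Root tips of *Brassica napus* were sequenced as stranded poly(A) mRNA libraries. Per the study's methods the authors aligned reads to a rapeseed reference with HISAT2, tested each variety with DESeq2 and deposited raw counts per gene, with no normalization. The counting program, use of strand and treatment of reads that fit several places are not given in the sources used here. Deposited tables of the authors' comparisons (log2 fold changes, p-values) were not used. A row with no gene name (0 to 1 reads per Duplo library, 3.30e-06% at most) was left out.

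The counts of the 6 Duplo libraries (26554987 to 33738867 reads) were filtered with filterByExpr, scaled by TMM and tested with edgeR 4.0.16 (quasi-likelihood F test, Benjamini-Hochberg adjusted p) in R 4.3.3. The SE is the absolute log2FC over the square root of F. Alternatives used DESeq2 1.42.0, limma 3.58.1 voom with sample weights, other scalings and filters, robust estimation, the replicate number as a block, all 12 libraries in 1 fit and each library left out in turn. Scripts were tested on simulated data. Summaries and figures used Python 3.11.15.

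Gene names and Arabidopsis loci came from the study's tables. The RefSeq table matched 3347 identifiers and added no name. Genes were named by a rule: DEGs, genes of the study's primer table, in each direction the 12 smallest p-values among genes with a name, over 2-fold apart with no overlap and at least 1 CPM, the 8 with the largest ratio of 29 °C replicate 3 to its partners, and up to 4 of each of 29 lists by p. 144 genes met it, and those most telling are described. Members, lists and rule were chosen with earlier results of these data known. The p-values measure the spread between pools of seedlings.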

Additional observations from a re-analysis of the deposited data

How the results depend on the processing

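The count of DEGs changed with the tool, the libraries sharing the fit and the library left out. With edgeR it was 1 over 6 libraries, 0 to 465 when 1 library was left out (465 without 29 °C replicate 3, 0 without any other) and 1 under other scalings, filters, the legacy dispersion and robust estimation. DESeq2 gave 929, voom with weights 793 and a fit of all 12 libraries 781. Of 139 named genes, 1 was a DEG with edgeR, 0 to 30 with 1 library left out, 53 by DESeq2, 38 by voom and 41 in the fit of 12. Among all genes tested, 0.00194% were DEGs with edgeR. DESeq2 called 1.11% higher and 0.689% lower, voom 0.979% and 0.555%, and the fit of 12 called 0.820% and 0.594%. Named genes were partly chosen for small p-values in these libraries. The larger share of DEGs among them follows in part from that choice. Genes at an unadjusted p under 0.05 ranged from 6179 to 12275 with 1 library left out (2915 to 5808 higher, 3264 to 6467 lower), lowest without 21 °C replicate 1. List members numbered 102 higher and 5 lower, and 75 to 148 and 5 to 57 with 1 library left out; 40 were lower by voom. The interaction passed in 0 named genes with edgeR, 7 with DESeq2 and 0 to 7 with 1 library left out, and 36 (23 to 64) had an unadjusted p under 0.05. Chosen after seeing the data, leaving out 29 °C replicate 3 and 21 °C replicate 2 together gave 613 DEGs, 30 of them named, and 12546 genes at an unadjusted p under 0.05 (5956 higher, 6590 lower), with 160 list members higher and 50 lower, and DESeq2 without 29 °C replicate 3 gave 1330 DEGs, 53 named, with 60 list members lower.

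Signs turned in genes that 1 library carried. By voom the log2FC was 1.69 for *BnHSP70B*, -0.85 for *BnASN1*, -2.79 for *BnKTI1*, -2.34 for *BnBCAT-2*, 0.85 for *BnHSP17.6II*, -3.83 for *BnTHA1*, -1.24 for *BnGLYI4*, -3.10 for *BnGSTF3* and -1.17 for *BnNPF7.2*. With 1 library left out it ranged from -0.88 to 3.14 for *BnHSP70B*, -3.08 to 6.92 for *BnASN1*, -4.04 to 3.07 for *BnKTI1*, -4.40 to 4.60 for *BnBCAT-2*, -0.38 to 1.06 for *BnNPF6.3*, -4.76 to 5.27 for *BnHSP17.6II*, -5.04 to 2.86 for *BnTHA1*, -1.77 to 3.47 for *BnGLYI4*, -4.35 to 3.74 for *BnGSTF3* and -1.78 to 4.30 for *BnNPF7.2*. Without 29 °C replicate 3 and 21 °C replicate 2 it was 3.07 for *BnHSP70B*, -4.13 for *BnKTI1*, -3.85 for *BnTHA1*, -1.34 for *BnGLYI4*, -4.51 for *BnGSTF3* and -2.04 for *BnNPF7.2*. DESeq2 without 29 °C replicate 3 gave -3.20 for *BnASN1*, -4.07 for *BnKTI1*, -4.48 for *BnBCAT-2*, -5.08 for *BnTHA1*, -1.78 for *BnGLYI4*, -4.35 for *BnGSTF3* and -1.77 for *BnNPF7.2*. The cause of these changes was not tested beyond the libraries left out.

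No pairing by replicate number was seen: deviations of same-numbered libraries correlated at 0.02, -0.21 and -0.04, and 1 of 6 libraries correlated best with its own number. These deviations are from means of 3 libraries, with 29 °C replicate 3 among them, so the check cannot exclude a pairing. With the replicate number as a block there were 0 DEGs, 0 of them named, and 8564 genes at an unadjusted p under 0.05, and the log2FC was 1.61 for *BnHSP70B*, -0.26 for *BnKTI1*, -1.92 for *BnTHA1*, -0.15 for *BnGLYI4* and -0.66 for *BnGSTF3*. With 3 libraries per temperature, a spread of the size seen in 29 °C replicate 3 limits what the test can call.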
